A study of Mus musculus with 16 samples.

Results

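Regulatory T cells (Treg) restrain other immune cells partly through molecules that they secrete or release. The 7 genes described here encode such products: the cytokine Il10, the cytokine subunits Ebi3 and Il12a, the secreted fibrinogen-like protein Fgl2, the granule protease Gzmb, the glycan-binding protein Lgals1 and the opioid peptide precursor Penk. They were chosen by name, and each was read from the probe set that the platform's annotation assigns to that symbol alone. All 7 were found among the 19531 genes with a probe set on the array, each with 1 probe set: 10349603 for Il10, 10445977 for Ebi3, 10492540 for Il12a, 10519983 for Fgl2, 10420308 for Gzmb, 10425161 for Lgals1 and 10511363 for Penk.

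Interleukin-10 (IL-10) signals through Il10ra and Il10rb to STAT3, restrains antigen-presenting cells, and is made mostly by activated, effector-type Treg. EBI3 pairs with the IL-12 subunit p35, encoded by Il12a, as IL-35, and with the p28 subunit, encoded by Il27, as IL-27. FGL2 acts on antigen-presenting cells through the Fc receptors Fcgr2b and Fcgr3, granzyme B enters target cells with the help of perforin (Prf1), and galectin-1 binds glycans on receptors of activated T cells. The product of Penk is cleaved into enkephalins, peptides that bind opioid receptors such as Oprd1.

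RNA was taken from CD4+ T cells of the spleen of male mice aged 6 weeks and hybridized to 16 Affymetrix Mouse Gene 1.0 ST arrays. CD3+ CD4+ cells were sorted on a MoFlo cell sorter by GFP, with GFP+ cells taken as Treg and GFP- cells as conventional T cells (Tconv). There were 8 groups of 2 arrays. Every mouse carried a GFP reporter at Foxp3, the gene of the transcription factor that defines Treg, and no group had an unmodified Foxp3. In the allele that the labels call Foxp3-GFP, or Foxp3-Fusion-GFP, GFP is joined to the Foxp3 protein (fusion below). In Foxp3-IRES-GFP, GFP is made as a separate protein from the shared transcript (ires below). Each allele was studied on the B6 background and on NOD, a strain that develops autoimmune diabetes. The labels do not say whether the 2 arrays of a group came from separate mice, so the p-values measure the spread between arrays, which may be technical. The cells were sorted on a Foxp3 reporter, so Foxp3 itself, at log2 11.37 to 12.16 on the Treg arrays and 7.01 to 8.18 on the Tconv arrays, is a check of the sort and no finding.

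Levels are log2 of the deposited intensity, and differences are on the log2 scale with their standard error (SE). A gene was tested if it lay above log2 6.06, the 40th percentile of all values, on at least 2 arrays, which left 12798 genes, and it was called where limma's adjusted p was under 0.05. Il12a passed 6.06 on only 1 array and was not tested. Il10 passed it only on the 2 arrays of B6 fusion Treg, so it was tested because it was high in that group. Array medians ran from 86.7 to 99.0 on the linear scale, and Cd3e and Cd4 were high on all 16 arrays, at 11.03 to 11.84 and 11.04 to 11.72. The Tconv array NOD fusion replicate 1 stood apart in its markers of other cells. Its summed intensity of 8 B cell and plasma cell markers was 560.9 (344.6 to 401.4 on the other Tconv arrays), that of 10 dendritic cell and MHC class II markers 1224.1 (645.6 to 734.6) and that of 10 myeloid markers 650.5 (458.5 to 585.1).

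Of the 7 genes, 4 had a promoter in the RefSeq table used (GRCm38.p6, 250 bases before to 50 after the start site). They were Ebi3, Fgl2, Gzmb and Il12a, the last with 2 start sites. The promoters of Fgl2 (chr5:21372423-21372722, plus strand), Gzmb (chr14:56262285-56262584, minus strand) and Ebi3 (chr17:55952373-55952672, plus strand) are shown because the levels of Fgl2 and Gzmb differed most clearly between Treg and Tconv among them, and because Fgl2 and Ebi3 were called in opposite directions between the alleles. Each reads 5′ to 3′ on the gene's strand, with matches to a searched motif in capitals.
Fgl2: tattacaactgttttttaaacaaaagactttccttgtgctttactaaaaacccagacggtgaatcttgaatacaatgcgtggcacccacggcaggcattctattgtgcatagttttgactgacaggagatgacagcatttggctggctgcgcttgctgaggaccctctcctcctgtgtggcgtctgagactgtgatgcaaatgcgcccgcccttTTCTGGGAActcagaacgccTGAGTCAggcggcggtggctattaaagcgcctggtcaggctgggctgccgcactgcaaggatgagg
Gzmb: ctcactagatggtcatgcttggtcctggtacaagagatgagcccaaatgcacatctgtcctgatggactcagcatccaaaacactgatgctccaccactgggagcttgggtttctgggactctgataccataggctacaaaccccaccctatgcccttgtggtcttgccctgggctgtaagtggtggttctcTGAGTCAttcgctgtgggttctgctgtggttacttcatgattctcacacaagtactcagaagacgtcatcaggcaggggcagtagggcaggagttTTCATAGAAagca
Ebi3: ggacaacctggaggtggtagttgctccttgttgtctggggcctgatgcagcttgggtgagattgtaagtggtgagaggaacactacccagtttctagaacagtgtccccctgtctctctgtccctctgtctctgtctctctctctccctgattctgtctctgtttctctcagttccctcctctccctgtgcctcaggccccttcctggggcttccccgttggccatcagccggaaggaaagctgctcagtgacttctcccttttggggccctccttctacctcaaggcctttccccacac
Motifs of 7 kinds were searched on both strands: forkhead TGTTTAC, NFAT GGAAAA, AP-1 TGANTCA, STAT TTCNNNGAA, CRE TGACGTCA, the TATA box TATAAA, and an IRF motif of GAAA, any 2 bases, then GAAA. Fgl2 held a STAT match (TTCTGGGAA) whose first base lay 36 bases before the start and an AP-1 match (TGAGTCA) 16 bases before it. Gzmb held the same AP-1 letters 58 bases before its start and a STAT match (TTCATAGAA) at position 38 of the transcript, counted from 1 at the start. Neither the Ebi3 promoter nor the windows at the 2 Il12a starts held a match to any of the 7. Of all 32851 promoters in the table, 7.81% held the AP-1 and 8.30% the STAT letters, against 3.65% for forkhead, 23.4% for NFAT, 3.44% for IRF, 1.79% for CRE and 13.6% for the TATA box. These are matches of letters and no measure of binding.

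Il10 was highest in Treg of B6 fusion mice, at 7.12 and 6.62, and lower in Treg of NOD fusion mice, at 5.46 and 5.76. The ires Treg stood at 5.62 and 5.15 in B6 and at 4.98 and 4.87 in NOD. The 8 Tconv arrays ran from 4.39 to 5.37 with a median of 4.72. The 2 B6 fusion Treg arrays thus lay above the other 14, whereas the 2 NOD ires Treg arrays fell within the range of Tconv. That overlap came from the Tconv array NOD fusion replicate 1 (5.37), since the other 7 Tconv arrays reached 4.84, below both. In the order of group means, B6 fusion Treg was followed by NOD fusion Treg and B6 ires Treg, whose arrays overlapped, and then by NOD ires Treg, which overlapped the highest Tconv group.

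**Figure D1:**
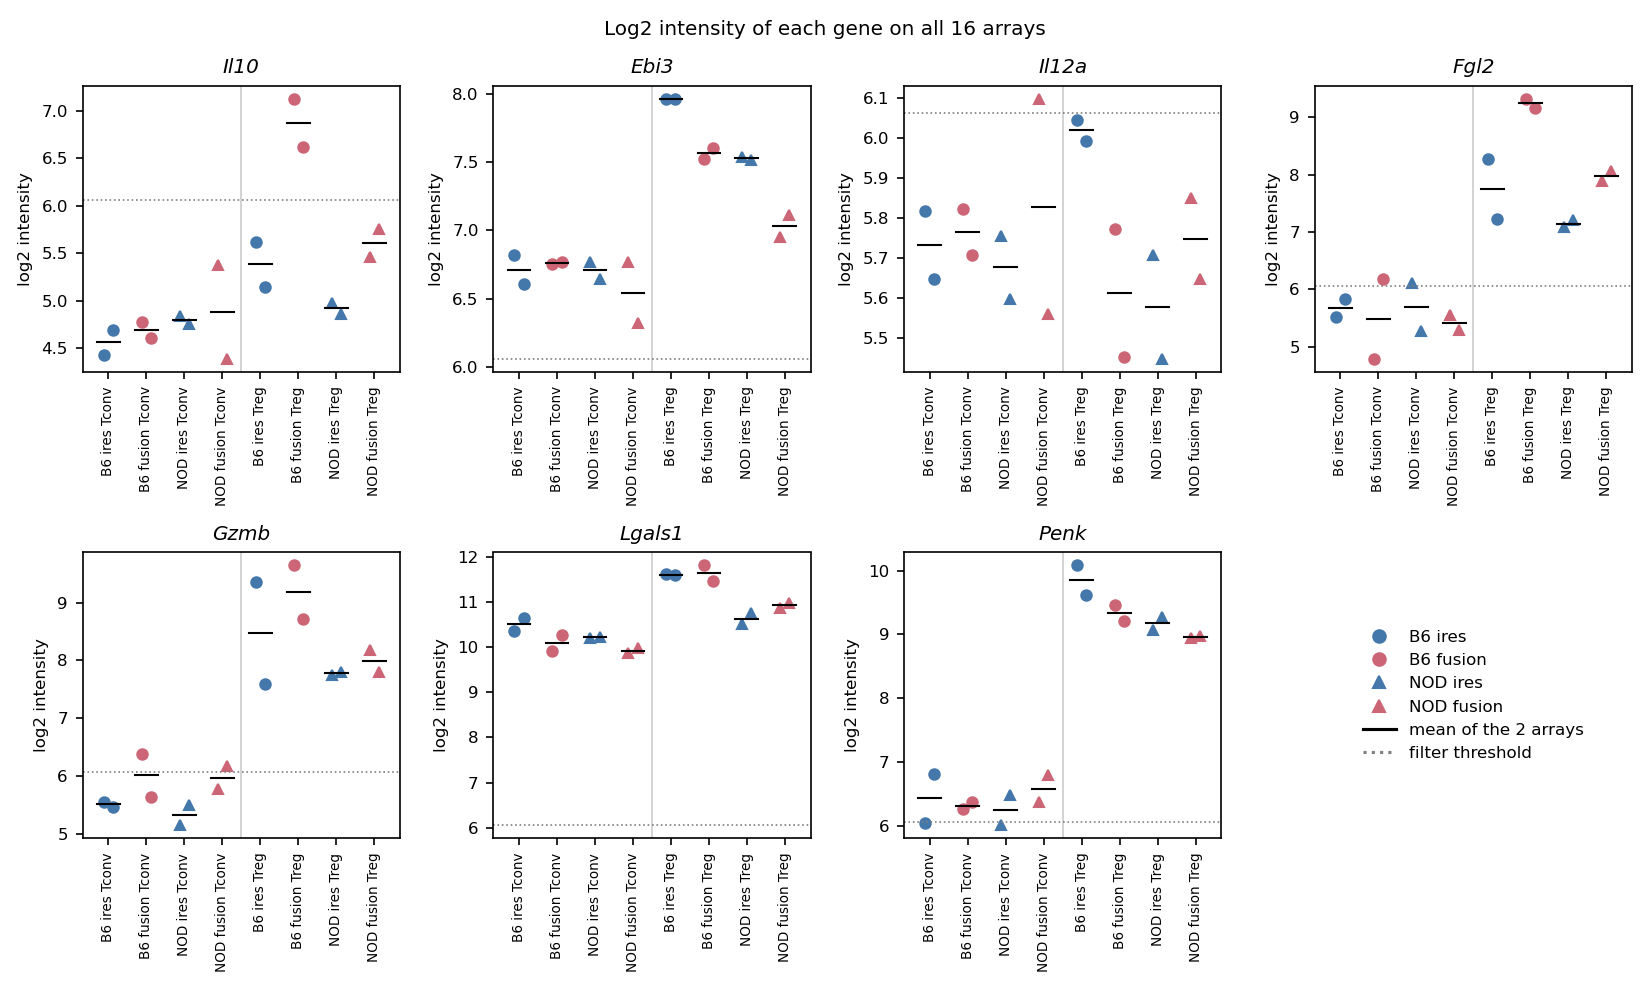
Log2 intensity (vertical axis) of the 7 genes on all 16 arrays, by group (horizontal axis), with points for arrays, black bars for the mean of 2 arrays and a dotted line at the filter of log2 6.06. Penk, Gzmb, Fgl2 and Ebi3 were higher on all 8 Treg arrays than on any Tconv array, a separation not counted over all genes. Il10 passed the dotted line only in B6 fusion Treg, and Il12a passed it on 1 Tconv array.

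Ebi3 was 7.96 on both B6 ires Treg arrays and 7.52 and 7.61 in B6 fusion Treg. In NOD it was 7.54 and 7.52 in ires Treg and 6.95 and 7.12 in fusion Treg. The Tconv arrays ran from 6.32 to 6.82 with a median of 6.76, all below the lowest Treg array. The order of the Treg groups was therefore not that of Il10: B6 ires was highest, B6 fusion and NOD ires did not differ beyond the spread of their arrays, and NOD fusion was lowest.

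Il12a, the partner of Ebi3 in IL-35, showed no such order. Its Treg arrays ran from 5.45 to 6.04 with a median of 5.74, and its Tconv arrays from 5.56 to 6.10 with a median of 5.73. The highest value of all, 6.10, was on the Tconv array NOD fusion replicate 1 named above, and was the only one above the filter. The B6 ires Treg arrays, at 6.04 and 5.99, were the next highest. In a fit of every gene on the array, the difference between Treg and Tconv was -0.01 ± 0.08 (95% interval -0.18 to 0.16, adjusted p = 0.960). In B6 Treg its 2 fusion arrays, at 5.77 and 5.45, lay below the 2 ires arrays, a difference of -0.41 ± 0.16 (adjusted p = 0.624 in the same fit), and in NOD Treg the alleles overlapped.

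Fgl2 reached 9.32 and 9.16 in B6 fusion Treg and 7.89 and 8.07 in NOD fusion Treg. In B6 ires Treg replicate 1 was at 8.27 and replicate 2 at 7.23, and the NOD ires Treg arrays stood at 7.08 and 7.21. Tconv ran from 4.79 to 6.19 with a median of 5.53. All Treg arrays were above all Tconv arrays, and the order of the 4 Treg groups matched that of Il10, with NOD fusion and B6 ires Treg again overlapping.

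Gzmb stood at 9.64 and 8.71 in B6 fusion Treg, 9.35 and 7.58 in B6 ires Treg, 8.17 and 7.80 in NOD fusion Treg and 7.75 and 7.80 in NOD ires Treg. The gap of 1.77 between the 2 B6 ires Treg arrays was the widest between any pair of replicates among the 7 genes. On Tconv arrays it ran from 5.15 to 6.38 with a median of 5.60, so that Treg and Tconv did not overlap, while the arrays of B6 fusion and B6 ires Treg did. Gzmb belongs to a cluster of similar protease genes, and how far its probes also detect the others was not examined.

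Lgals1 was high on every array. In B6 Treg it stood at 11.80 and 11.45 (fusion) and at 11.61 and 11.58 (ires), and in NOD Treg at 10.86 and 10.98 (fusion) and at 10.51 and 10.75 (ires). Tconv ran from 9.86 to 10.65 with a median of 10.22. The B6 Treg arrays were clear of all others, and the lowest NOD ires Treg array fell below the highest Tconv array.

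Penk stood at 10.08 and 9.62 in B6 ires Treg and at 9.46 and 9.22 in B6 fusion Treg. In NOD it was 9.07 and 9.28 in ires Treg and 8.95 and 8.97 in fusion Treg. Tconv ran from 6.01 to 6.82 with a median of 6.37. Even the lowest Treg array was more than 2 log2 units above the highest Tconv array, and the order of the 4 Treg groups matched that of Ebi3.

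Comparing Treg with Tconv asks which of these products mark the GFP+ cells. Over the 4 mouse lines the genes with the larger differences were Penk, higher in Treg by 2.94 ± 0.11 (7.67-fold, adjusted p = 2.06e-13), Gzmb by 2.65 ± 0.19 (6.28-fold, adjusted p = 2.85e-09) and Fgl2 by 2.46 ± 0.17 (5.50-fold, adjusted p = 1.91e-09). These ranked 15, 25 and 29 among the 12798 genes by the size of the increase. On Tconv arrays Fgl2 and Gzmb each passed the filter on 2 of 8, so their folds rest on low Tconv values. Lgals1 rose by 1.01 ± 0.07 (adjusted p = 3.17e-09), Il10 by 0.96 ± 0.12 (adjusted p = 3.47e-06) and Ebi3 by 0.84 ± 0.07 (adjusted p = 1.28e-08). Il10 passed the filter only on the 2 B6 fusion Treg arrays. Its Treg minus Tconv value was 2.18 in B6 fusion, 0.82 in B6 ires, 0.73 in NOD fusion and 0.12 in NOD ires. Of all genes tested, 28.6% were called in this comparison and 16.7% were higher in Treg. Quantile normalization turned the balance of those calls, from 2138 higher and 1526 lower to 2033 and 2400, and left these 6 higher. An array of sorted cells cannot tell a larger share of cells that express a gene from more RNA per cell.

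The rise was present in each background for 5 of the 6. In B6, where 20.8% of genes were called (1804 higher and 862 lower, or 1660 and 1640 after quantile normalization), the 6 tested genes were higher in Treg: Il10 by 1.50 ± 0.17, Ebi3 by 1.03 ± 0.10, Fgl2 by 2.91 ± 0.25, Gzmb by 3.06 ± 0.27, Lgals1 by 1.32 ± 0.11 and Penk by 3.22 ± 0.15. In NOD, where 18.4% were called, Ebi3 was higher by 0.66 ± 0.10, Fgl2 by 2.01 ± 0.25, Gzmb by 2.24 ± 0.27, Lgals1 by 0.70 ± 0.11 and Penk by 2.65 ± 0.15. Il10 differed by 0.43 ± 0.17 in NOD and was not called (adjusted p = 0.0951). That value rested on the Tconv array NOD fusion replicate 1, which had the highest Il10 of the Tconv arrays (5.37) beside the marker sums given above. Without it the difference was 0.67 (adjusted p = 0.00244). The part of the other cells' RNA in this was not tested.

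Gzmb is best known from cytotoxic lymphocytes. The summed intensity of 9 markers of NK cells, CD8 T cells and gamma-delta T cells was 699.9 to 991.3 on the Treg arrays and 914.9 to 1283.7 on the Tconv arrays, with 5 of the 9 above the filter. Of these, the NK cell receptor Klrd1 was lower in Treg by -2.35 and the CD8 chain Cd8b1 by -0.42 ± 0.08, whereas the CD8 chain Cd8a was higher by 0.23 ± 0.08 (adjusted p = 0.0462). Gzma, which encodes granzyme A, lay below the filter in both (means 4.77 and 5.09). Ebi3 and Fgl2 are also made by myeloid cells. The summed myeloid markers, 4 of 10 above the filter, were 432.7 to 596.2 in Treg and 458.5 to 650.5 in Tconv, and Itgax, Csf1r and Adgre1 were below the filter on all arrays. Cd74, an MHC class II chaperone, was higher in Treg by 1.00 (adjusted p = 0.000832), H2-Ab1 was lower by -0.38, and the other tested genes of the dendritic cell list were not called. The B cell and plasma cell sum was 393.8 to 499.5 in Treg, overlapping the 344.6 to 401.4 of the 7 Tconv arrays other than NOD fusion replicate 1, and the B cell receptor chain Cd79b was higher in Treg by 0.69 ± 0.09 (adjusted p = 1.03e-05). The part of these markers in the differences between Treg and Tconv was not tested.

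**Figure D2:**
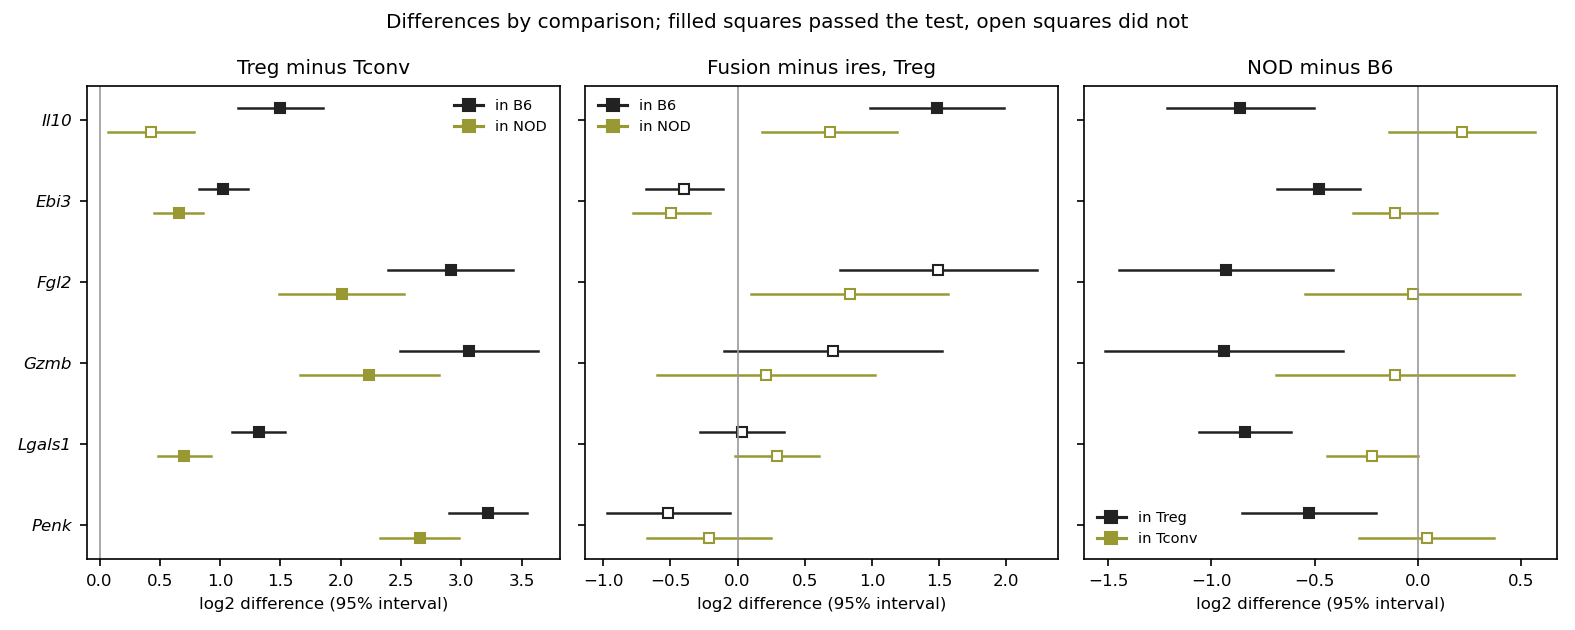
Log2 differences of the 6 tested genes with 95% intervals from the fit (horizontal axis): Treg minus Tconv in each background, fusion minus ires in Treg of each background, and NOD minus B6 in each cell type. Filled squares had an adjusted p under 0.05; in Treg the 6 squares of NOD minus B6 lie between -0.94 and -0.48, and in Tconv between -0.22 and 0.21.

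Comparing the alleles within Treg asks what joining GFP to Foxp3 goes with. Within a background each allele is a separate mouse line, so the allele cannot be told apart from other differences between the lines. Over both backgrounds 0.609% of genes were called, 51 higher and 27 lower with the fusion allele (38 and 10 after median centring), and 3 of the 6 were among them. Il10 was higher in fusion than in ires Treg by 1.09 ± 0.17 (adjusted p = 0.00363) and Fgl2 by 1.17 ± 0.25 (2.24-fold, adjusted p = 0.0401). Fgl2 ranked 4 by the size of the increase among the 12798. All ires Treg and NOD fusion Treg arrays lay below the filter for Il10, which entered the test through B6 fusion Treg, so no fold is given for it; with every gene on the array tested its adjusted p was 0.00380. Ebi3 was lower in fusion Treg by -0.45 ± 0.10 (1.36-fold, adjusted p = 0.0443). Gzmb (0.46 ± 0.27, adjusted p = 0.811), Lgals1 (0.16 ± 0.11, adjusted p = 0.852) and Penk (-0.36 ± 0.15, adjusted p = 0.558) were not called, with 95% intervals of -0.11 to 1.04, -0.06 to 0.38 and -0.69 to -0.04. Foxp3 itself was 11.37 to 11.59 on the fusion Treg arrays and 11.77 to 12.16 on the ires Treg arrays, without overlap, and was not called. Its part in the allele differences was not tested.

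These 3 calls were not equally firm. With an array left out the filter was not set anew, and without either B6 fusion Treg array Il10 would not have passed it. Il10 kept its call under every other processing setting in which it was tested (adjusted p 8.17e-05 to 0.0160) and without 15 of the 16 arrays in turn, and missed it without B6 fusion Treg replicate 1 (0.96, adjusted p = 0.0517). Fgl2 lost its call without 7 of the 8 Treg arrays in turn (0.90 to 1.21, adjusted p 0.0896 to 0.201), keeping it without B6 ires Treg replicate 1, and also with quantile normalization, with trend and robust variances, and with array weights. Ebi3 lost its call without any 1 of the 8 Treg arrays (-0.49 to -0.41, adjusted p 0.0671 to 0.191) and with no filter, with median centring and with array weights. No setting changed the sign of these 3 differences.

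Within B6 Treg 0.344% of genes were called, 37 higher and 7 lower (25 and 10 after quantile normalization), and 1 of the 6 was among them. Il10 was higher in fusion Treg by 1.49 ± 0.24 (adjusted p = 0.00584, or 0.00658 with every gene tested), with both fusion arrays above both ires arrays. These fusion arrays are the ones through which Il10 passed the filter. Its call was lost without B6 fusion Treg replicate 1 (1.23, adjusted p = 0.139) or B6 ires Treg replicate 2 (1.25, adjusted p = 0.199). Fgl2 differed by 1.49 ± 0.35 (adjusted p = 0.0953), was called without B6 ires Treg replicate 1 (2.02, adjusted p = 0.0282) or without either B6 fusion Tconv array (adjusted p = 0.0118 each), and had no overlap between the alleles' arrays. The B6 value of Gzmb, 0.71 ± 0.39 (adjusted p = 0.599), turned on the 2 ires arrays: it was 1.59 (adjusted p = 0.0394) without replicate 1 and -0.17 (adjusted p = 0.901) without replicate 2. Ebi3 was -0.40 ± 0.14 and Penk -0.52 ± 0.22 (adjusted p = 0.377 and 0.496), in each case with both fusion arrays below both ires arrays.

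Within NOD Treg, with 0.102% of genes called, none of the 6 was called by limma, although 3 had an unadjusted p under 0.05. Il10 differed by 0.69 ± 0.24 (adjusted p = 0.779), Fgl2 by 0.84 ± 0.35 (adjusted p = 0.987), Ebi3 by -0.50 ± 0.14 (adjusted p = 0.448), Gzmb by 0.21 ± 0.39, Lgals1 by 0.29 ± 0.15 and Penk by -0.21 ± 0.22. The signs were those seen in B6. The difference between the backgrounds in the allele effect was tested directly, with 0.0391% of genes called and none of the 6 among them. It was -0.80 ± 0.34 for Il10 (95% interval -1.51 to -0.09, adjusted p = 0.763; the only 1 of the 6 with an unadjusted p under 0.05) and -0.66 ± 0.49 for Fgl2 (-1.70 to 0.38, adjusted p = 0.780).

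In Tconv, with 0.0234% of genes called between the alleles, none of the 6 was called, and 1 had an unadjusted p under 0.05. This was Lgals1 (-0.36 ± 0.11, adjusted p = 0.852), which ranked 44 among the 12798 genes by p. Gzmb was 5.64 to 6.38 on the 4 fusion Tconv arrays and 5.15 to 5.55 on the 4 ires arrays, without overlap, and differed by 0.57 ± 0.27 (adjusted p = 0.999). The difference between the allele's effect in Treg and its effect in Tconv was 0.98 ± 0.24 for Il10 (adjusted p = 0.210) and 1.39 ± 0.35 for Fgl2 (adjusted p = 0.222), the second highest value among the 12798 genes. With 0.0469% of genes called, none of the 6 passed, and 5 had an unadjusted p under 0.05. Penk, the weakest of the 5 (limma, unadjusted p = 0.0449), ranked 427 among the 12798 genes by p. Il10 was called without the Tconv array NOD fusion replicate 1 (1.23, adjusted p = 0.0143) and Fgl2 without B6 fusion Tconv replicate 2 (1.74, adjusted p = 0.0114).

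Comparing NOD with B6 asks whether the autoimmune-prone background differs in these products. In Treg the 6 tested genes were called lower in NOD, where 21.0% of all genes were called and 9.82% were lower. Centring each array on its median changed the lower share to 5.38% and left all 6 lower and called. Gzmb was lower by -0.94 ± 0.27 (1.92-fold, adjusted p = 0.0216), Fgl2 by -0.93 ± 0.25 (1.90-fold, adjusted p = 0.0130), Il10 by -0.86 ± 0.17 (adjusted p = 0.00154), Lgals1 by -0.84 ± 0.11 (1.79-fold, adjusted p = 2.21e-05), Penk by -0.53 ± 0.15 (1.44-fold, adjusted p = 0.0223) and Ebi3 by -0.48 ± 0.10 (1.40-fold, adjusted p = 0.00190). Of the 6, Lgals1 alone had no overlap, with all 4 NOD Treg arrays (10.51 to 10.98) below all 4 B6 Treg arrays (11.45 to 11.80). The share of all genes tested without such overlap was not counted. The median over the 6 was -0.85, against -0.02 over all genes tested, and Foxp3 differed by 0.14 (adjusted p = 0.525).

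The calls of Lgals1, Il10 and Ebi3 held without any 1 of the 16 arrays, with the filter kept as set on all 16. Without either B6 fusion Treg array Il10 would not have passed a filter set anew. With trend and robust variances the calls of Fgl2 (adjusted p = 0.0883) and Gzmb (adjusted p = 0.119) were lost. Without B6 fusion Treg replicate 1 the calls of Fgl2 (-0.89, adjusted p = 0.0683), Gzmb (-0.71, adjusted p = 0.148) and Penk (-0.47, adjusted p = 0.108) were lost, and without B6 ires Treg replicate 1 the same 3 were lost (-0.67, -0.50 and -0.41; adjusted p = 0.0738, 0.106 and 0.104). Gzmb and Penk were also lost without NOD fusion Treg replicate 2 (adjusted p = 0.0733 and 0.0514) or NOD ires Treg replicate 1 (0.0534 and 0.0753). Within Treg, summed markers of several other cell kinds were also lower in NOD, without overlap. Myeloid markers were 575.1 to 596.2 in B6 and 432.7 to 512.7 in NOD. Those of dendritic cells and MHC class II (7 of 10 above the filter) were 841.5 to 997.3 and 655.8 to 757.5. Those of NK, CD8 T and gamma-delta T cells were 891.2 to 991.3 and 699.9 to 875.9. Of the 5 tested genes of that list, 1 was called higher in NOD and 2 lower (21.0% of all genes were called). Those of B cells and plasma cells (3 of 8 above the filter) were 436.9 to 499.5 and 393.8 to 436.7. Red cell and platelet markers (1 of 3 above the filter) overlapped, at 96.3 to 116.1 in B6 and 101.6 to 132.4 in NOD. The part of these markers in the strain difference was not tested, nor were sequence differences between the strains under the probes.

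In Tconv 15.9% of genes were called between the strains, 1202 higher and 831 lower in NOD (1844 and 339 after median centring), and none of the 6 was, nor did any have an unadjusted p under 0.05. Lgals1 differed by -0.22 ± 0.11 (adjusted p = 0.144) and Il10 by 0.21 ± 0.17 (adjusted p = 0.368), and the other 4 by -0.11 to 0.04. The strain effect in Treg minus that in Tconv was tested directly, with 0.820% of genes called. It was -1.07 ± 0.24 for Il10 (adjusted p = 0.0387), the only 1 of the 6 called, and -0.62 ± 0.15 for Lgals1 (adjusted p = 0.0621). The other values were -0.90 ± 0.35 for Fgl2, -0.83 ± 0.39 for Gzmb, -0.57 ± 0.22 for Penk and -0.37 ± 0.14 for Ebi3, and all 6 had an unadjusted p under 0.05. The Il10 call was lost without 11 of the 16 arrays in turn (-1.12 to -0.83, adjusted p 0.0544 to 0.138), among them the Tconv array NOD fusion replicate 1 (-0.83, adjusted p = 0.0562). Lgals1 was called without B6 fusion Tconv replicate 2, B6 ires Tconv replicate 2 or B6 fusion Treg replicate 2 (adjusted p 0.0311 to 0.0425), Fgl2 without B6 fusion Tconv replicate 2 (-1.25, adjusted p = 0.0414) and Gzmb without B6 ires Treg replicate 2 (-1.27, adjusted p = 0.0389).

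The allele and strain comparisons use the same 8 Treg arrays, and their values stand side by side as follows. Il10 and Fgl2 were higher with the fusion allele and lower in NOD, so that B6 fusion Treg was highest and NOD ires Treg lowest for both. Ebi3 was lower with the fusion allele and lower in NOD, so that B6 ires Treg was highest and NOD fusion Treg lowest. Lgals1 and Gzmb were called for strain and not for allele, and Penk followed Ebi3 in the order of the Treg groups, with only the strain difference called.

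Across the 8 Treg arrays, Il10 and Fgl2 had a Pearson correlation of 0.97 (Spearman 0.95), and 0.94 without the 2 B6 fusion arrays. Ebi3 and Penk had 0.85 (Spearman 0.81), and 0.82 without NOD fusion replicate 1 and B6 ires replicate 1. Il10 and Ebi3 had -0.05. The arrays come in 4 groups of 2, so these values describe the order of the groups together with differences between replicates. They are given without a test. In B6 ires Treg, replicate 1 was above replicate 2 for Il10 (5.62 and 5.15), Fgl2 (8.27 and 7.23) and Gzmb (9.35 and 7.58). In NOD ires Treg, Il10 and Fgl2 differed in opposite directions between the replicates.

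**Figure D3:**
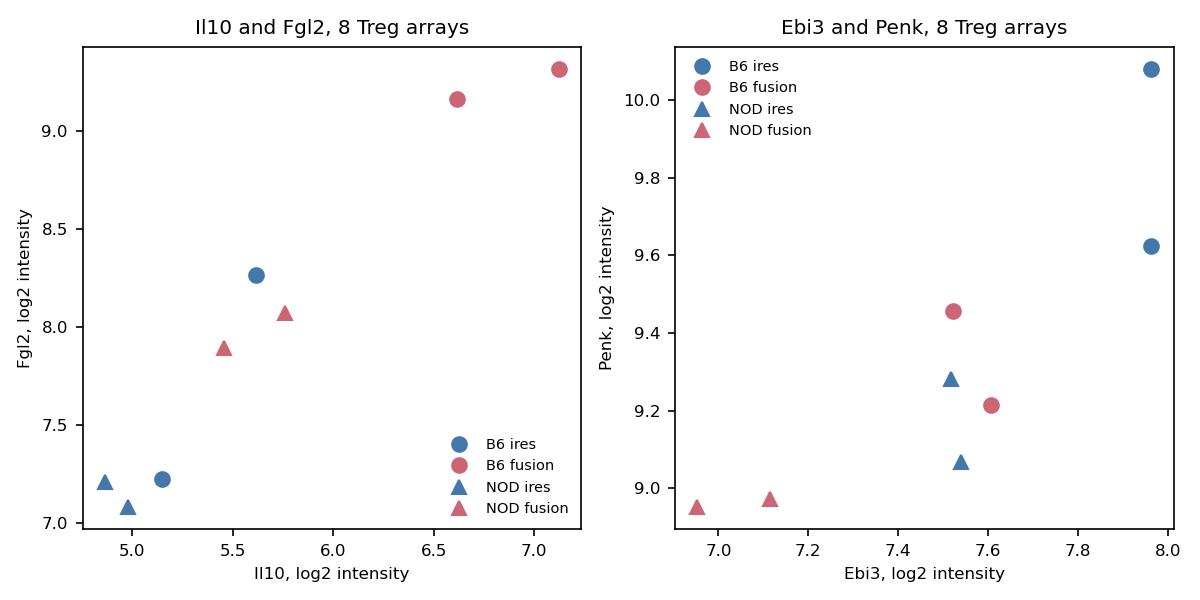
Log2 intensities on the 8 Treg arrays, Il10 (horizontal) against Fgl2 (vertical) on the left and Ebi3 against Penk on the right, with colour for the allele and shape for the background. B6 fusion arrays lie at the upper right for Il10 and Fgl2, B6 ires arrays for Ebi3 and Penk; the correlations over the 8 arrays are 0.97 and 0.85.

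Among 12160 named genes, Fgl2 was the gene most like Il10 over the 8 Treg arrays and Il10 the gene most like Fgl2. The next for Il10 were Cysltr2, a leukotriene receptor (0.96), and Dtx3l (0.95), and for Fgl2 they were S100a6 (0.97) and Glrx (0.96). Ebi3 was most like Lpin1 (0.97), Prrg4 (0.95) and Chchd10 (0.94). Gzmb was most like Chdh (0.97), Il34 (0.95) and Nbl1 (0.94), and Penk like Fhod3, L3mbtl1 and Tnfrsf21 (0.97 each). On the Treg arrays Il34 (5.81 to 6.24), Fhod3 (5.69 to 6.12) and Tnfrsf21 (5.77 to 6.33) varied little and lay near the filter. Between Treg and Tconv they differed by -0.05, -0.06 and -0.04. The part of variation between arrays in these correlations was not tested. Lgals1 was most like H2-T24 (1.00), Coro2b (0.99) and Ifi206 (0.99), and its 8 values fall into separate B6 and NOD clusters. Over all 16 arrays, where the contrast of Treg and Tconv dominates, Penk was most like Lrrc32, an anchor for latent TGF-beta on the cell surface, Cd83 and Lbh (0.98 each). Gzmb was most like the inhibitory receptor Klrg1 (0.97), Epcam (0.97) and S100a4 (0.96), and Fgl2 like Car5b (0.97), Il12rb1 (0.96) and S100a6 (0.96). Il10 was most like Slc43a1 (0.91), Cysltr2 (0.89) and Nedd4 (0.89), Ebi3 like Chchd10, Gsto1 and Sdhaf1 (0.95 each), and Lgals1 like Cdkn2c (0.96), S100a10 (0.96) and H2bc14 (0.95).

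Genes around these 7 products were taken from lists described by counts alone. Of 12 receptors for the products, 9 were tested, and between Treg and Tconv 4 were higher and 1 lower, with a median of 0.17 against -0.01 over all genes. Over all genes tested, 16.7% were higher and 11.9% lower. The IL-10 receptor chains Il10ra and Il10rb rose by 1.35 ± 0.07 and 0.87 ± 0.06 in Treg, and Il12rb1, the shared receptor chain of IL-12 and IL-23, by 1.21 ± 0.07. Il12rb1 was also higher in fusion than in ires Treg by 0.46 ± 0.10 (adjusted p = 0.0445) and was lower in NOD than in B6 Treg by -0.44 ± 0.10 (adjusted p = 0.00496). Fcgr3, a receptor of FGL2, was lower in Treg by -0.21 ± 0.07. It was near the filter, at 5.84 to 6.31 on the Treg and 6.03 to 6.52 on the Tconv arrays, and Fcgr2b lay below the filter. The opioid receptor Oprd1 did not pass between Treg and Tconv (-0.08 ± 0.08). It was lower in NOD than in B6 both in Treg (-0.34 ± 0.11) and in Tconv (-0.43 ± 0.11, adjusted p = 0.0138). Between the strains in Treg 3 of the 9 receptors were lower in NOD and 1 was higher, where 21.0% of all genes were called. Ogfr was lower by -0.43 ± 0.09. Il12rb2, at 5.19 to 6.19 on the Treg arrays and so near the filter, was higher by 0.44 ± 0.12 (adjusted p = 0.0187).

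The partners of the cytokine subunits were sparse. Of 8 partner subunits and related cytokines on the array 2 were tested, of which Clcf1, a cytokine of the IL-6 family, was lower in Treg by -0.32 ± 0.07, and Il27, the partner of Ebi3 in IL-27, differed by 0.02 ± 0.07. Il12b and Il23a, like Il12a, did not pass the filter on 2 arrays. Among 15 helper T cell cytokines 8 were tested, 3 of them higher in Treg and 1 lower (16.7% and 11.9% of all genes). Lta (0.78 ± 0.06), Tnf (0.46 ± 0.09) and Ltb (0.32 ± 0.07) rose and Tgfb3 fell by 0.36. Tgfb3 lay near the filter, at 5.57 to 5.94 on the Treg and 5.84 to 6.49 on the Tconv arrays. None of the 8 was called for allele or strain in Treg.

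Of 16 known regulators of Il10, 12 were higher in Treg and 1 was lower (median 0.67), against 16.7% and 11.9% of all genes. Prdm1, which encodes Blimp-1, rose by 1.77 ± 0.08, Irf4 by 1.75 ± 0.09 and Maf by 1.56 ± 0.09, whereas Id2 fell by 1.73. In fusion against ires Treg 3 of the 16 were called, all higher, where 0.609% of all genes were called. These were Prdm1 by 1.01 ± 0.12 (adjusted p = 0.000225), Ahr by 0.68 ± 0.10 (adjusted p = 0.00243) and Nfil3 by 0.62 ± 0.13 (adjusted p = 0.0362). Over the 8 Treg arrays, the correlation of Il10 with Ahr was 0.87 and with Prdm1 0.84, and without the 2 B6 fusion arrays 0.80 and 0.71. Prdm1 was above its ires range in both fusion groups, at 8.83 and 8.86 in B6 and 8.58 and 8.45 in NOD against 7.41 to 7.89 on the ires arrays, while Il10 was lower in NOD fusion than in B6 fusion Treg. Between the strains in Treg, 2 regulators were lower in NOD (Batf by -0.32 ± 0.10 and Id2 by -0.43 ± 0.14) and 1 was higher (Stat3 by 0.25 ± 0.08). Of all genes 21.0% were called in that comparison, a share near that of the 16. Of 7 genes of STAT3 signalling and feedback 5 were higher in Treg (16.7% of all genes), among them Bcl3 (0.68 ± 0.07) and Socs1 (0.53 ± 0.07). None was called for allele, and Socs1 was lower in NOD Treg by -0.45 ± 0.09.

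Of 18 other granule genes on the array 14 were tested, with 6 higher and 4 lower in Treg and a median of 0.04, where 28.6% of all genes were called and 16.7% were higher. Perforin (Prf1) was lower in Treg by -1.10 ± 0.07, and the death ligand Fasl by -0.97 ± 0.10, while the granule proteoglycan Srgn rose by 0.71 ± 0.07 and the serpin Serpinb6b by 0.64 ± 0.12. Between the strains in Treg Prf1 was the only 1 of the 14 called (21.0% of all genes), higher in NOD by 0.31 ± 0.10, and none was called for allele. In Tconv Prf1 was also higher in NOD, by 0.43 ± 0.10 (adjusted p = 0.0103).

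Of the 14 galectins and galectin-binding or glycan genes besides Lgals1, 12 were tested and 5 were higher in Treg (16.7% of all genes), with a median of 0.09. They included Itgb1 (0.85 ± 0.09), Mgat5, which builds the branched glycans that galectins bind (0.78 ± 0.07), Cd2 (0.50 ± 0.06) and Lgals8 (0.25 ± 0.07). In NOD against B6 Treg 2 of the 12 were higher and 1 was lower, where 21.0% of all genes were called. Itgb1 was higher by 0.89 ± 0.12 and Spn by 0.33 ± 0.09, the opposite of Lgals1. The galectin Lgals7 was lower by -0.32 ± 0.10 (adjusted p = 0.0279). Itgb1 was also higher in NOD Tconv by 0.48 ± 0.12 (adjusted p = 0.0177). Of the other opioid precursors and processing enzymes 4 of 9 were tested, and the protease Furin was higher in Treg by 0.24 ± 0.07, whereas the precursors Pomc and Pdyn differed by -0.01 ± 0.07 and 0.01 ± 0.09. Of 6 fibrinogen-related genes besides Fgl2 1 was tested, and it was not called.

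The 16 other suppressive molecules measured, a list made with knowledge of Treg and therefore not independent of the direction, were higher in Treg in all 16 cases, with a median of 2.48. In fusion against ires Treg the receptors Tigit (0.86 ± 0.11), Icos (0.73 ± 0.11) and Lag3 (0.52 ± 0.11) were higher and the other 13 were not called (0.609% of all genes were called). In NOD against B6 Treg 5 of the 16 were lower and none higher (9.82% of all genes were lower), with Klrg1 at -1.07 ± 0.22, Lrrc32 at -1.04 ± 0.12, Ctla4 at -0.63 ± 0.17 and Tigit at -0.62 ± 0.11. The median of the 16 was -0.20, and that of the 6 described above was -0.85.

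**Figure D4:**
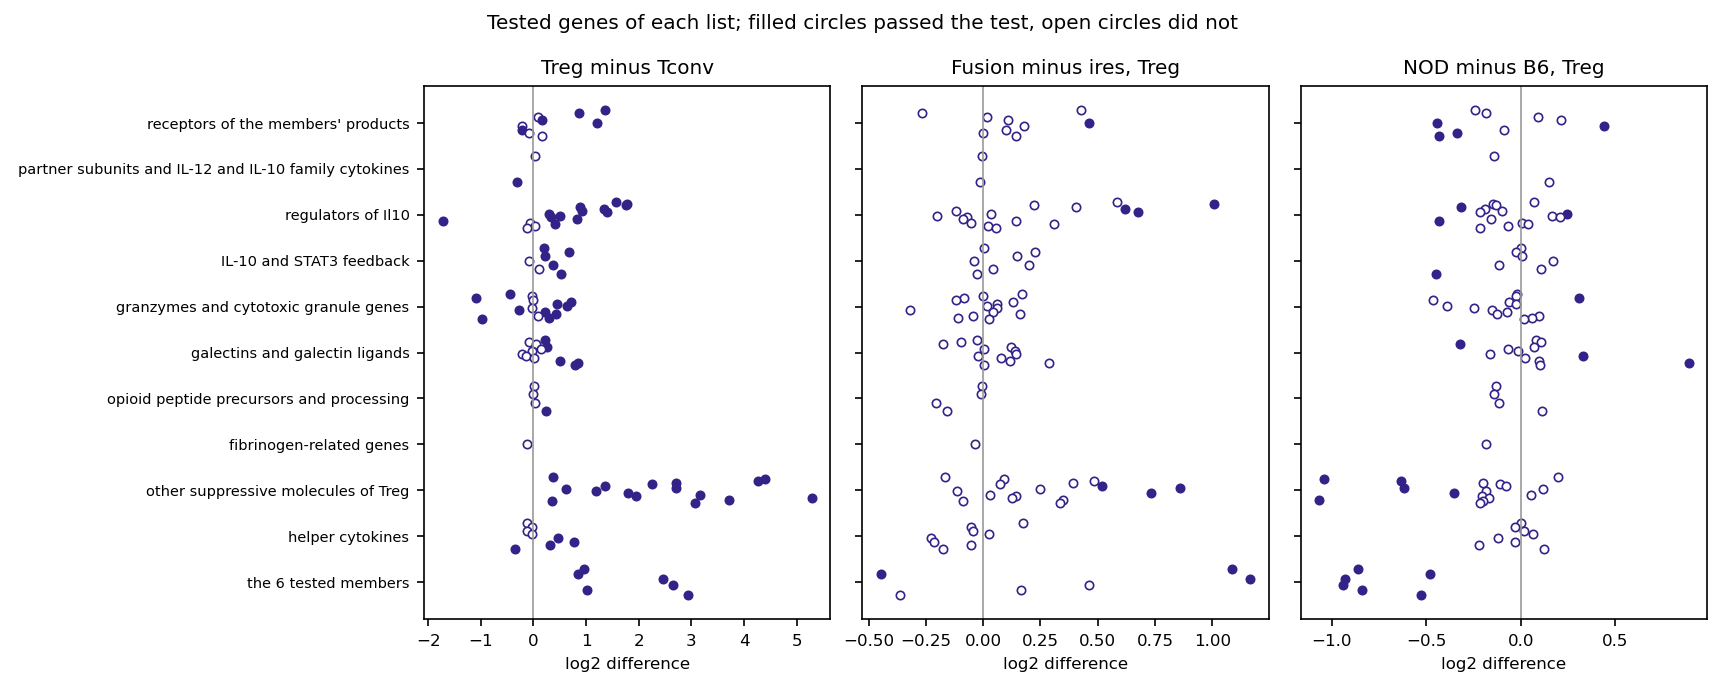
Log2 differences (horizontal axis) of the tested genes of each list (vertical axis) for Treg minus Tconv, fusion minus ires in Treg and NOD minus B6 in Treg, with the 6 tested suppressive genes at the bottom; filled circles had an adjusted p under 0.05. The 6 lie at -0.48 or below for NOD minus B6, where the granule list has 1 filled circle of 14 and the helper cytokine list none of 8.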

How the data were processed

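Gene expression of sorted Treg and Tconv was measured on 16 Affymetrix Mouse Gene 1.0 ST arrays, 2 in each of 8 groups. The authors summarised the probe sets by RMA in Affymetrix Power Tools, per the submitters' processing notes, and deposited linear intensities. Tool versions and genome build: not given in the sources used here. Log2 was taken of each intensity, with no pseudocount. Of 25108 probe sets, 21157 carried 1 gene symbol, 1341 several and 2610 none. Where several probe sets shared a symbol, the one with the highest mean stood for the gene, which gave 19531 genes. All 7 symbols stood in the RefSeq name table of GRCm38.p6.

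Genes above the 40th percentile (log2 6.06) on at least 2 arrays were tested, 12798 in all. With limma 3.58.1 (R 4.3.3), all 16 arrays entered a single model of group means, with 8 residual and 9.80 prior degrees of freedom. Tests were two-sided, with Benjamini-Hochberg adjustment across these 12798 genes and a threshold of 0.05. The precision is limited by how few arrays each group has. The fit was also run on simulated data drawn independently for each gene and array. Those data hold no effect shared between arrays, so such effects were not covered. Named genes were the 7 members, up to 4 called genes per list and comparison with the largest differences, and the 3 genes most alike. Pomc, Pdyn, Il27, Fcgr2b, Il12b, Il23a, Gzma, Foxp3 and the markers of other cells were named beside these. The members and lists were chosen with earlier results of these data known. The alternatives were no filter, a filter at the 60th percentile, median centring, quantile normalization, variances with a trend and robust prior, weights per array, averaging a gene's probe sets, only the groups compared, a replicate block, and leaving out each array. The filter was not set anew when an array was left out.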

Additional observations from a re-analysis of the deposited data

Results flagged for a closer look

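The strain difference of Il10 (NOD minus B6) was not the same in Treg and Tconv. In Treg it was -0.86 ± 0.17 and in Tconv 0.21 ± 0.17, and the test of the difference itself gave -1.07 ± 0.24 on the log2 scale (limma, adjusted p = 0.0387), with 0.820% of all genes called in that comparison. Il10 lay above the filter on the 2 B6 fusion Treg arrays alone, and with every gene tested the adjusted p was 0.0490. Among the Tconv arrays the highest Il10, 5.37, was on NOD fusion replicate 1, which also had the highest Cd74 of the Tconv arrays (8.27, the others up to 6.46). Without it the value was -0.83 (adjusted p = 0.0562). The call was also lost without any 1 of 10 other arrays (adjusted p up to 0.138), with quantile normalization (0.0723) and with array weights (0.0529).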

How the results depend on the processing

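The number of the 6 tested genes called between Treg and Tconv (6, and 5 in NOD alone) stayed within 1.5 times under every alternative run; leaving out 1 array at a time gave 6 over both strains, 6 in B6 and 5 or 6 in NOD. For fusion against ires Treg it was 3, with 1 under array weights and 0 to 3 with 1 array left out. In B6 Treg it was 1, with 0 under the stricter filter (which leaves Il10 out), 2 with median centring, 3 with only the groups compared and 0 to 3 with 1 array left out. For the allele effect in Treg minus Tconv it was 0, and 0 to 1 with 1 array left out. For NOD against B6 in Treg it was 6, with 4 under trend and robust variances and 3 to 6 with 1 array left out. For the strain effect in Treg minus Tconv it was 1, with 0 under quantile normalization or array weights, 2 with trend and robust variances, 2 with the replicate block and 0 to 2 with 1 array left out. The cause of these changes was not tested beyond the number of arrays or genes in each fit.

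Deviations of same-numbered arrays had correlations of -0.371 to 0.465 over 28 pairs of groups (median 0.146, 16 above 0.1 and 6 under -0.1). The rule asked for every pair to be above 0.1, so the numbers were not taken to pair the arrays. A pairing of only some groups, such as Treg and Tconv of the same line, was not tested. With the replicate block the calls were 3 for fusion against ires Treg, 1 in B6 Treg and 6 for NOD against B6 Treg, and Lgals1 was called for the strain effect in Treg minus Tconv (adjusted p = 0.0451 against 0.0621).

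Signs turned only in differences that were not called. Fgl2 for NOD against B6 in Tconv was -0.03, 0.061 with median centring and 0.086 with quantile normalization. With 1 array left out, the ranges that crossed 0 were, for fusion against ires in B6 Treg, -0.17 to 1.59 for Gzmb and -0.14 to 0.21 for Lgals1. For Gzmb the allele effect in NOD minus B6 ran from -1.38 to 0.39 and in Treg minus Tconv from -0.55 to 0.33. For fusion against ires in Tconv they were -0.14 to 0.35 for Il10, -0.17 to 0.057 for Ebi3, -0.57 to 0.12 for Fgl2 and -0.086 to 0.30 for Penk. For NOD against B6 in Tconv they were -0.031 to 0.46 for Il10, -0.22 to 0.0010 for Ebi3, -0.37 to 0.32 for Fgl2, -0.30 to 0.071 for Gzmb and -0.15 to 0.24 for Penk. Fitting only the groups compared gives no separate value where a comparison uses all 8 groups. Il10 and Il12a lay near the background of the array on most arrays, which limits what can be said of them.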
